A study of Homo sapiens with 192 samples.

Results

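The region described here is the stretch of chromosome 15 between 61.105 and 89.89 Mb of hg38, which is known to be present as an extra copy in parental HAP1, a near-haploid human cell line. Its members are the features of the count table that lie wholly within these bounds: 861 of the 2029 features of chromosome 15, out of 80971 features in all, of which 223 held an annotated transcription start (promoter features) and 638 did not (non-promoter features). The rule uses position only, although it was set with earlier results of these data known. The members were set against the other 1168 features of chromosome 15, of which 268 were promoter features and 900 were not, and against the 74866 features of the other 21 autosomes. No feature crossed a bound. The last feature before the segment and the first inside it both lay in RORA and were seen in 10 and 1 of the nuclei described below. The last inside it was the promoter feature of ANPEP (5 nuclei) and the first after it lay near ARPIN (2 nuclei).

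HAP1 nuclei were profiled by plate-based snATAC-seq, in which the transposase Tn5 cuts and tags open chromatin in bulk and single nuclei are then sorted into wells. Nuclei labeled with CASB, a DNA barcode carried on the lectin concanavalin A, were pooled with unlabeled nuclei, and 96 were sorted into each of 2 plates. Which nuclei carried the label cannot be told from the sample names, so a plate holds both kinds. The nuclei came from 1 pool and the labels name no replicate cultures. Plates were therefore compared side by side, without a test. Intervals in brackets are 95% intervals that cover counting error only.

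A nucleus passed when it held more than 300 features, counted over features seen in more than 1 nucleus, and 83 nuclei of plate 1 and 79 of plate 2 passed. Passing nuclei had 345 to 15351 read pairs in features, with a median of 2067.5. In the segment, a passing nucleus showed a median of 16.5 features, from 0 to 168, and a median of 18.5 read pairs. Some wells stood apart. Of the 257 segment features seen in exactly 2 of the sequenced nuclei, 182 (70.8%, interval 64.8 to 76.3%) were shared by particular wells of 1 plate, either a cell from 37 to 48 and the one 36 numbers higher or a cell from 73 to 84 and the one 12 numbers higher. The corresponding share was 76.7% in the rest of chromosome 15 and 70.4% on the other autosomes. Results that rest on these wells are therefore also given for the 91 passing nuclei outside cells 37 to 48 and 73 to 96.

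An ATAC signal depends on how open a region is and on how many copies of it a nucleus holds, since each copy is a separate substrate for Tn5. In a haploid nucleus most loci offer 1 copy, and a segment held as an extra copy offers 2. Promoters of broadly used genes, mostly rich in CpG dinucleotides, are open in nearly every cell type, whereas distal elements are open in few. The segment itself carries genes of many kinds, among them the mitochondrial DNA polymerase POLG, the glycolytic enzyme PKM, the kinase MAP2K1, a pair of U5 spliceosomal RNA genes and the nicotinic receptor cluster CHRNA5, CHRNA3 and CHRNB4.

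The sequences below show what the most widely seen members look like. The first 3 are promoter features and the last 2 are non-promoter features, each as the 300 bases around its center on the plus strand of hg38. Capitals mark the letters CCAAT on either strand, the element bound by the factor NF-Y. The windows are chr15:89334866-89335165 (POLG and the divergent POLG-DT), chr15:89088199-89088498 (ABHD2), chr15:81324103-81324402 (STARD5 and TMC3-AS1), chr15:82047084-82047383 (intergenic, near MEX3B) and chr15:86300737-86301036 (an intron of AGBL1).
POLG: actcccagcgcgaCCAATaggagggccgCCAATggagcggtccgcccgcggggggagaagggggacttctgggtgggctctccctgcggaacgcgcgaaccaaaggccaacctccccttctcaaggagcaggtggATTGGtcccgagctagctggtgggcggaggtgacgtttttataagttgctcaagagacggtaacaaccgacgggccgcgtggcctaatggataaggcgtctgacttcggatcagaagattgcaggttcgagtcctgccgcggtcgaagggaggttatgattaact
ABHD2: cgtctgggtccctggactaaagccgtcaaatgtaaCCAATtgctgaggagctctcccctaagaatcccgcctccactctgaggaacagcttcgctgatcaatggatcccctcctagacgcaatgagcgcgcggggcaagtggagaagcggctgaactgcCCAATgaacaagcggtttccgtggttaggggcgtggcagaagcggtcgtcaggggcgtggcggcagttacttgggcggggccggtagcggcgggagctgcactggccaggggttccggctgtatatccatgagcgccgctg
STARD5: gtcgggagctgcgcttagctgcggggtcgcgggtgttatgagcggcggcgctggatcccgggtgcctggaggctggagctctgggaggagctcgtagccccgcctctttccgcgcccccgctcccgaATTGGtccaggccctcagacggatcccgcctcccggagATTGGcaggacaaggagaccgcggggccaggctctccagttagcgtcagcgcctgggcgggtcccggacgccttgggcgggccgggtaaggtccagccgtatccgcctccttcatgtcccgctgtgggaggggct
MEX3B: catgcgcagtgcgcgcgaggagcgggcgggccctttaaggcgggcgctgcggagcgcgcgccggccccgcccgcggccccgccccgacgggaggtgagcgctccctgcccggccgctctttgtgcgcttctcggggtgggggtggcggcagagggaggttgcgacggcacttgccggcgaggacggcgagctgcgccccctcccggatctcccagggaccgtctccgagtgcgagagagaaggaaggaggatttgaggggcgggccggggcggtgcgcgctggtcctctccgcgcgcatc
AGBL1: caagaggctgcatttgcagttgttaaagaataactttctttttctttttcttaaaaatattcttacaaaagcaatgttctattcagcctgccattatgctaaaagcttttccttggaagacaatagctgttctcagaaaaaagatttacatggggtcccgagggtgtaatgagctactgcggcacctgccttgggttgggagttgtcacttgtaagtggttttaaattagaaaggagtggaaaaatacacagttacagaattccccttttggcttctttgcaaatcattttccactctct
The promoter windows were 60.3, 61.7 and 70.7% G or C and held 3, 2 and 2 CCAAT elements. The window near MEX3B was 76% G or C with 44 CpG dinucleotides and the window in AGBL1 was 38% G or C with 2, and neither held any of the motifs searched.

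No doubling of the signal per feature was visible in the segment. A promoter feature of the segment held 9.38 read pairs over all passing nuclei (interval 8.98 to 9.79), and one in the rest of chromosome 15 held 8.16 (interval 7.83 to 8.51), a ratio of 1.15 (interval 1.08 to 1.22). For non-promoter features the means were 4.61 and 4.41, a ratio of 1.04 (interval 0.995 to 1.10). The segment's mean includes 11 non-promoter features seen in no passing nucleus, against 0 in the rest of chromosome 15. With all sequenced nuclei the ratio was 1.07 (interval 1.02 to 1.12), as it was with features seen in more than 1 nucleus. With nuclei thinned to 600 read pairs each, the non-promoter ratio was 1.24 (interval 1.11 to 1.38). The promoter ratio was then 1.13 (interval 0.982 to 1.31). A mean per feature covers only features that the peak caller reported, and the copy number of the segment was not tested. Whether the cells of this culture carried the extra copy is not given in the sources used here.

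The number of nuclei per feature gave the same picture. A promoter feature of the segment was seen in 7.69 passing nuclei on average and one elsewhere on chromosome 15 in 6.80, a ratio of 1.13 (interval 1.06 to 1.21). Non-promoter features were seen in 3.80 and 3.75 nuclei, or 1.01 times as many (interval 0.962 to 1.07). The medians were 6 nuclei for promoter features and 3 for non-promoter features in both sets. Of the segment's promoter features, 56 (25.1%, interval 19.6 to 31.3%) were seen in at least 10 passing nuclei, against 31.1% of promoter features over the whole table and 19.8% (interval 15.2 to 25.1%) in the rest of chromosome 15. Of its non-promoter features, 39 (6.11%, interval 4.38 to 8.26%) were seen that widely, against 7.36% over the whole table and 5.44% in the rest of chromosome 15.

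The plates differed in the promoter ratio. In plate 1 the 223 promoter features held 5.03 read pairs each and the other 268 held 4.08, a ratio of 1.23 (interval 1.13 to 1.34). In plate 2 they held 4.35 and 4.08, a ratio of 1.07 (interval 0.976 to 1.16). For non-promoter features the order was the other way, with a ratio of 1.01 (interval 0.944 to 1.07) on plate 1. On plate 2 it was 1.09 (interval 1.02 to 1.17). In neither class did the segment exceed the rest of chromosome 15 beyond counting error in both plates. Without cells 37 to 48 and 73 to 96, the promoter ratio was 1.02 (interval 0.934 to 1.11), with 4.17 and 4.09 read pairs per feature.

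**Figure D1:**
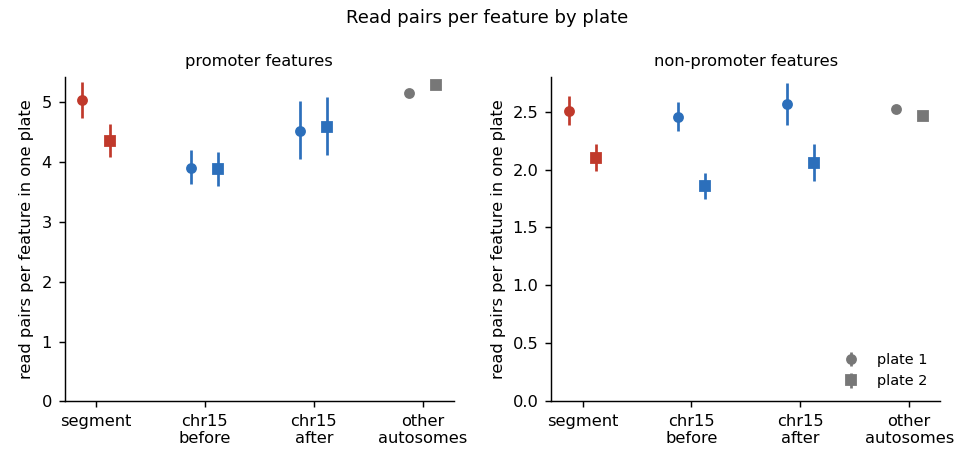
Read pairs per feature in passing nuclei of plate 1 (circles) and plate 2 (squares), for the segment (red), the rest of chromosome 15 before and after it (blue) and the other autosomes (grey), with 95% Poisson intervals. In plate 1 the segment's promoter features (5.03) lie above those before it (3.91), and in plate 2 the values are 4.35 and 3.88.

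The comparison depended on which side of the segment it was made with. Promoter features before the segment held 7.79 read pairs each and those after it held 9.10, so the segment stood at 1.20 times the former (interval 1.13 to 1.29) and at 1.03 times the latter (interval 0.945 to 1.12). Non-promoter features held 4.31 before and 4.62 after, against 4.61 inside. Against the other autosomes the segment was lower in both classes, at 0.899 times for promoter features (10.4 read pairs each, interval 0.861 to 0.939) and 0.925 times for non-promoter features (4.98 each, interval 0.892 to 0.959).

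Windows of 5 Mb counted from the proximal bound gave different pictures at the 2 bounds. At the proximal bound the intervals overlapped for promoter features, where the last window before the segment held 8.06 read pairs per promoter feature (interval 7.11 to 9.11) and the first inside held 8.98 (interval 8.12 to 9.90). The plates differed here, with 3.50 before and 4.93 inside on plate 1 (intervals 2.88 to 4.21 and 4.31 to 5.63) and 4.56 before and 4.04 inside on plate 2. Without cells 37 to 48 and 73 to 96 the promoter values were 4.25 before and 4.09 inside. Non-promoter features at this bound held 4.5 before and 4.43 inside over all passing nuclei. Without those cells they held 2.18 before and 1.71 inside, a ratio of before to inside of 1.28 (interval 1.03 to 1.58). Inside the segment, the level per promoter feature was 7.89 and 7.58 in the next windows, then 9.22, 11.2 and 14.4 toward the distal bound. The last window, 3.785 Mb long with 19 promoter features, held 273 read pairs in them. The POLG feature alone held 65 of these and the ABHD2 feature 46, and the ratio at the distal bound was not computed without them. With the POLG and ABHD2 features included, promoter features at the distal bound differed beyond counting error. Whether they would differ without them was not tested. The last window inside held 14.4 (interval 12.7 to 16.2) and the first beyond it held 8.06 (interval 7.14 to 9.05), a ratio of 1.78 (interval 1.504 to 2.11). With both features kept, the ratio was 1.897 (interval 1.48 to 2.42) on plate 1 and 1.68 (interval 1.32 to 2.14) on plate 2. It was 1.59 (interval 1.22 to 2.06) without cells 37 to 48 and 73 to 96. Non-promoter features of the same windows held 4.699 and 4.63, a ratio of 1.01 (interval 0.897 to 1.15). The next window after the segment held 11.2 per promoter feature (interval 9.83 to 12.7), and the windows inside the segment themselves ran from 7.58 to 14.4. Non-promoter features varied less, from 4.02 to 5.08 inside and from 3.92 to 4.79 in the flanking windows that held at least 10 promoter features.

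**Figure D2:**
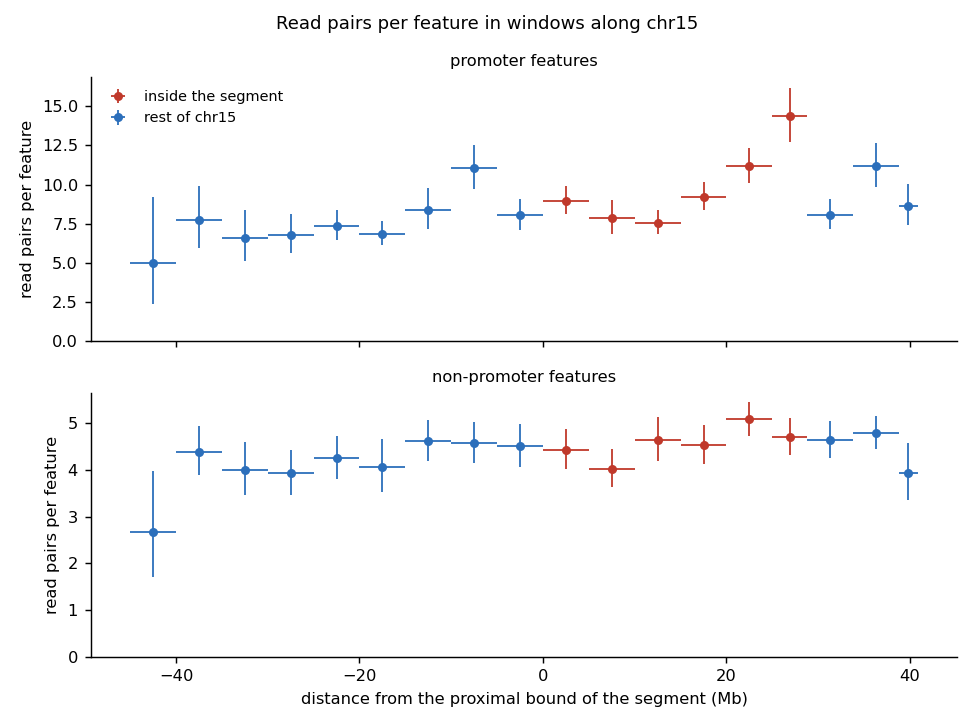
Read pairs per promoter feature (top) and per non-promoter feature (bottom) in 5 Mb windows along chromosome 15, against the distance from the proximal bound of the segment, with shorter end windows at their true width. Red windows are inside the segment and blue ones outside, bars show the 95% Poisson interval and the window's width, and the promoter value falls from 14.4 in the most distal window inside to 8.06 in the first beyond it. A large part of the read pairs of that most distal window lay in the POLG and ABHD2 features.

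Counted per chromosome, read pairs per promoter feature ran from 4.94 on chromosome 22 to 12.1 on chromosome 7 over the 21 other autosomes, and 14 of these lay above the segment. For non-promoter features the range was 3.43 on chromosome 19 to 5.34 on chromosome 13, with 15 above. The other autosomes were also cut into 79 stretches of the segment's length with at least 50 promoter features each. In 61 of them the mean per promoter feature was above the segment's, and the range was 5.58 to 18.9 with a median of 10.5. In 62 of them the mean per non-promoter feature was above it, with a median of 4.99.

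Base composition differed between the sets. Promoter features of the segment were 65.3% G or C at the median and those of the rest of chromosome 15 were 63.3%, and the non-promoter medians were 46 and 42%. On the other autosomes they were 64 and 40.7%. When each feature was set against autosomal features of its class and GC content, the segment's promoter features held 0.879 times the read pairs of such features (interval 0.841 to 0.917) and those of the rest of chromosome 15 held 0.782 times (interval 0.749 to 0.815). The segment-to-rest ratio on this scale was 1.12 (interval 1.06 to 1.19) for promoter features and 1.04 for non-promoter features.

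A per-feature mean leaves out what the peak caller did not report, since peaks were called once on all nuclei and each feature had to reach the caller's threshold. The number of features and of genes with a feature is therefore shown too. The segment held 30.0 features per Mb of sequence without gaps, 1.43 times the rest of chromosome 15 (20.9) and 1.07 times the other autosomes (28.02). Promoter features stood at 7.76 per Mb, 1.62 times the rest of chromosome 15 (4.79). Protein-coding genes were denser by 1.41 times (8.77 against 6.22 per Mb). Read pairs per Mb came to 175 in the segment, 92.5 before it and 174 after it, and 166 on the other autosomes. In the whole rest of chromosome 15 they came to 110, and the segment stood at 1.59 times this value. The stretch after the segment was close to it in read pairs per Mb with 4.71 genes per Mb.

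Of the 252 protein-coding genes that start in the segment, 167 (66.3%, interval 60.1 to 72.1%) had a promoter feature, against 55.2% (interval 49.8 to 60.5%) of the 348 in the rest of chromosome 15, a difference of 11.1 percentage points (interval 2.94 to 19.03). The share was 52.2% before the segment, 70.2% after it and 50.2% on the other autosomes. Among the 79 autosomal stretches it ran from 26.6 to 84.8%, and 23 of them were above the segment. With genes that had no feature counted as 0, the segment's genes held 8.30 read pairs each and those of the rest of chromosome 15 held 6.45, a ratio of 1.29 (interval 1.21 to 1.37).

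Genes whose start is rich in CpG (an observed-to-expected ratio of at least 0.6 over 300 bases) gave the same order. The 173 such genes of the segment held 9.89 read pairs each, the 185 before it 6.64, the 38 after it 12.7 and the 11388 of the other autosomes 9.60. The segment thus stood at 1.49 times the proximal part (interval 1.38 to 1.603), 0.781 times the distal part (interval 0.706 to 0.866) and 1.03 times the other autosomes (interval 0.981 to 1.08). Without cells 37 to 48 and 73 to 96, its ratio to the rest of chromosome 15 was 1.19 (interval 1.08 to 1.31) and its ratio to the other autosomes 0.954 (interval 0.888 to 1.02). Genes that share a divergent start share a feature, and a read pair is counted in each feature it overlaps.

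**Figure D3:**
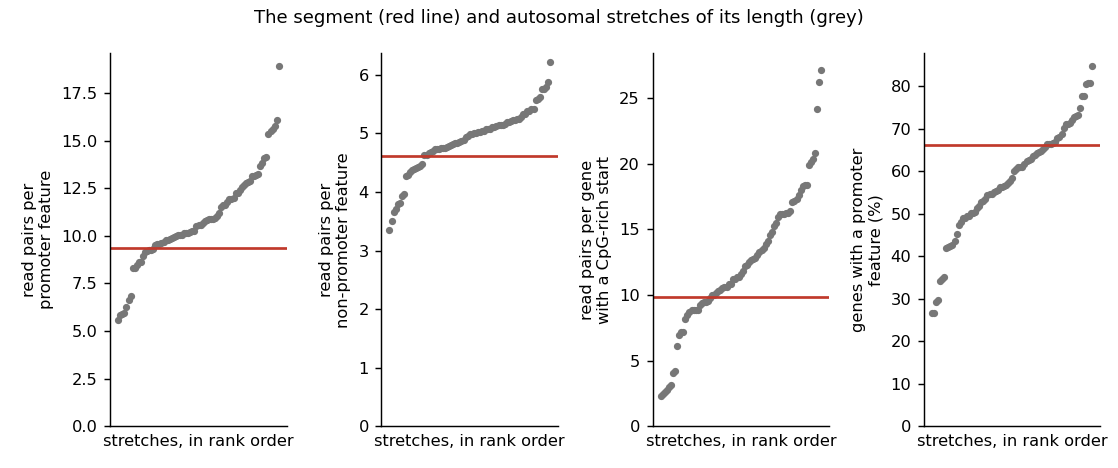
Values of the segment (red line) and of the 79 other autosomal stretches of the same length (grey points, in rank order), for read pairs per promoter feature, per non-promoter feature, per gene with a CpG-rich start including genes at 0, and for the percentage of genes with a promoter feature. The segment's 9.38 read pairs per promoter feature lie below 61 stretches and its 66.3% of genes lie below 23.

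In a nucleus with 2 copies of a feature, both can be tagged, so entries with 2 or more read pairs were counted. They made up 15.5% of the segment's non-zero entries (interval 14.4 to 16.7%), 1.74 percentage points more than in the rest of chromosome 15 (interval 0.280 to 3.21). For promoter features the shares were 16.3% inside and 15.3% elsewhere on chromosome 15, and for non-promoter features 14.96 and 13%. On plate 1 the promoter shares were 18.5 and 14.3%, and on plate 2 they were 13.9 and 16.2%, so the order turned between the plates. With nuclei thinned to 600 read pairs the difference was 0.910 points (interval -1.13 to 3.00), within counting error. Several cuts in 1 copy also give such entries, and the part of copy number in them was not tested.

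Summed over passing nuclei, the segment held 5032 of the 11193 read pairs of chromosome 15, or 44.96% (interval 44.03 to 45.9%). The plates had 44.93 and 44.99%. Single nuclei spread far more widely. Among 108 nuclei with at least 30 read pairs on chromosome 15, the share had a lowest value of 7.84%, a median of 43.4% and a highest value of 87.5%, and for 47 of them the exact binomial interval missed the pooled share. In plate 1 the 54 nuclei ran from 7.84 to 87.5% with a median of 43.7%, and in plate 2 the 54 nuclei ran from 19.4 to 73.2% with a median of 42.7%.

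Several nuclei stood far apart at high counts. In plate 1, cell 77 had 37 of 233 chromosome 15 read pairs in the segment (15.9%), cell 11 had 32 of 199 (16.1%) and cell 26 had 134 of 168 (79.8%). Cell 26 showed 95 segment features of its 125 on chromosome 15, and cell 77 showed 33 of 186. In cell 18 of plate 1, the nucleus at 87.5%, the 56 read pairs of the segment lay in 15 features. Cell 77 is among the wells that stood apart above, as is cell 43 of plate 1, the nucleus at 7.84%. Cell 89 of plate 1, 12 numbers above cell 77, had 12 of 67 (17.9%). Cells 11, 18 and 26 lie outside these wells. The cause of these shares was not tested.

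**Figure D4:**
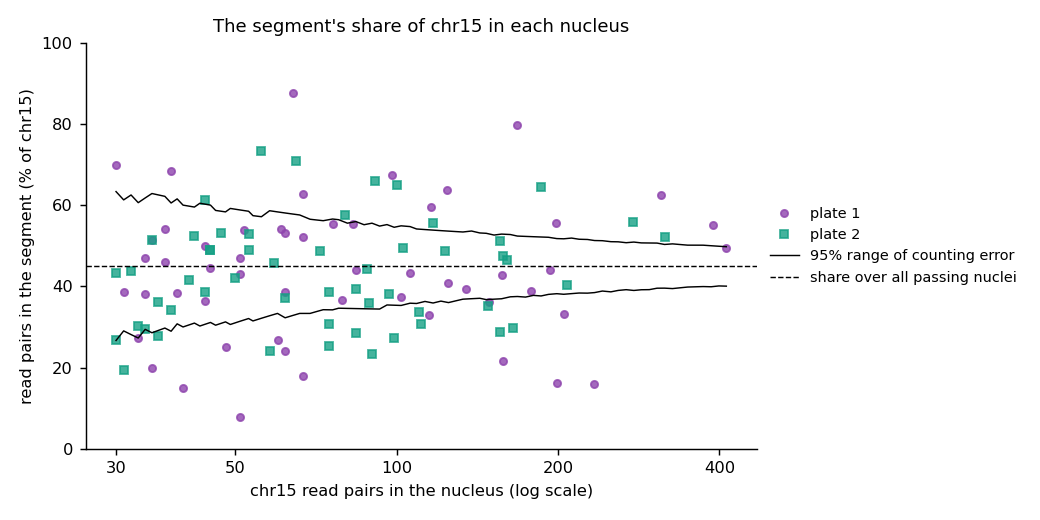
The segment's percentage of chromosome 15 read pairs in each of the 108 passing nuclei with at least 30 such read pairs, against that number on a log scale, for plate 1 (circles) and plate 2 (squares). The dashed line is the pooled 44.96%, solid lines bound 95% of counting error around it, and nuclei run from 7.84 to 87.5%.

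With features seen in place of read pairs, which takes out repeated counts of a feature, the share in 123 nuclei with at least 20 chromosome 15 features ran from 12 to 76.2% with a median of 44.8%. Its variance over nuclei was 5.23 times that of binomial counting. The same value over the 79 other autosomal stretches, each within its own chromosome, ran from 1.93 to 12.4 with a median of 3.63, and 6 of them exceeded the segment. The exact interval missed the pooled share in 36.6% of nuclei for the segment and in a median of 24.8% for the stretches, 3 of which were higher. In the nuclei outside cells 37 to 48 and 73 to 96 the variance ratio was 5.25 over 59 nuclei, with 3 of the 79 stretches above it. All 79 stretches thus varied more than binomial counting, and the segment lay toward the upper end.

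The promoter features seen in the most nuclei were led by POLG, the catalytic subunit of the mitochondrial DNA polymerase. Its feature (chr15:89334515-89335515) was seen in 22 of the 83 nuclei of plate 1 (26.5%, interval 17.4 to 37.3%) with 38 read pairs. On plate 2 it was seen in 17 of 79 (21.5%, interval 13.1 to 32.2%) with 27. It ranked 45 among the 13903 promoter features of the table. ABHD2, which encodes a lipid hydrolase, followed with 21 and 14 nuclei, and STARD5, which encodes a lipid transfer protein, with 12 and 13.

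The other 9 leading promoter features were seen in 18 to 22 nuclei. They hold starts of the U5 spliceosomal RNA RNU5B-1 (12 nuclei in plate 1 and 10 in plate 2), of ST20 (11 and 10), of the phagocytic bridging protein MFGE8 (8 and 12), of the actin nucleation factor WHAMM (12 and 7), of AKAP13, an anchor of protein kinase A (13 and 6), of SIN3A, the scaffold of a histone deacetylase complex (6 and 13), of the tropomyosin TPM1 (10 and 8), of the cyclophilin PPIB (8 and 10) and of ENSG00000276744, which lies within SIN3A (9 and 9). For all 12 the intervals of the plates overlapped. They were picked for their counts, so their height is a description. Outside cells 37 to 48 and 73 to 96, POLG still led with 22 of 91 nuclei (24.2%, interval 15.8 to 34.3%), but the order below it changed. WHAMM followed with 14 nuclei (15.4%) and ST20 with 13 (14.3%), ABHD2, SIN3A and TPM1 were each seen in 11 (12.1%) and STARD5 was seen in 8 (8.79%), with overlapping intervals among these 6.

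Of the non-promoter features, the one seen most often (chr15:82046733-82047733) lay between genes, 1.11 kb from the start of MEX3B, which encodes an RNA-binding protein. Plate 1 had it in 18 nuclei (21.7%, interval 13.4 to 32.1%) and it was also seen in 15 of plate 2 (18.99%, interval 11.03 to 29.4%), and it ranked 46 among the 67068 non-promoter features of the table. The next 2 lay in introns of AGBL1, which encodes a carboxypeptidase that trims glutamates from tubulin. The feature at chr15:86300386-86301386 was seen in 16 and 15 nuclei with 23 and 22 read pairs, and the feature at chr15:86275099-86276099 in 9 and 15 nuclei.

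AGBL1 spans 969 kb and held 38 features, of which 2 were promoter features. Their median was 3 nuclei and 4 of them were seen in at least 10, so the leading pair stood far above the rest of the gene. In contrast to the MEX3B feature, both were poor in G and C (38 and 36.7%). The other leading non-promoter features were seen in 15 to 22 nuclei and lay in introns of PARP16, ENSG00000173867, AKAP13, LINGO1, PDE8A and MORF4L1 and between genes near CYP11A1. The widest difference between plates was at MORF4L1, which 3 nuclei showed on plate 1 (3.61%, interval 0.752 to 10.2%). Plate 2 had 12 such nuclei (15.2%, interval 8.10 to 25.03%), and these intervals overlapped too.

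Small RNA genes were looked at because some leading features overlap one, so their counts are a description. Positions are from RefSeq (GRCh38.p14). All 4 tRNA genes of the segment overlapped a feature, as did 2 of 3 spliceosomal RNA genes, 4 of 34 microRNA genes and 0 of 11 snoRNA genes. The POLG feature covers the arginine tRNA gene TRR-TCG1-1 whole (chr15:89335073-89335145), the MORF4L1 feature (15 nuclei) and an overlapping one (13 nuclei) both cover TRK-CTT1-2, a promoter feature covers TRQ-CTG1-4 (12 nuclei) and a non-promoter feature covers TRC-GCA5-1 (6 nuclei). The promoter features of RNU5A-1 (13 nuclei) and RNU5B-1 (22 nuclei) each cover their gene whole, and the feature in PARP16 (22 nuclei) shares 2 bases with an end of RNU5A-1. Of the promoter features, both of the U5 genes, both over tRNA genes and 1 of the 4 over microRNA genes reached 10 nuclei, against 31.1% over the whole table. Of the non-promoter features, the 1 that touches RNU5A-1 and 2 of the 3 over tRNA genes did, against 7.36%. These counts are few and come in part from overlapping features, and whether small RNA genes differ from other features was not tested. The tRNA gene beside POLG is shown on the plus strand, with the core of its B box (GTTCGANTC), an internal element of tRNA promoters, in capitals.
TRR-TCG1-1: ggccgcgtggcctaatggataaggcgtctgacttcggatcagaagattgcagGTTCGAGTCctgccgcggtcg
In the 300 bases around the feature centers this core was found in 1 of 223 promoter and 2 of 638 non-promoter features of the segment, and in 0.272 and 0.140% of those on the other autosomes, on either strand.

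Most of the motifs searched on both strands were about as frequent in the segment as elsewhere. CCAAT was found in 75 of its 223 promoter windows (33.6%), in 33.6% of those in the rest of chromosome 15 and in 33.7% of those on the other autosomes. CCGGAAG, bound by ETS factors, was found in 14.3, 11.2 and 11.6%, CACGTG (E-box) in 7.62, 7.84 and 7.84%, and CGCATGCG (NRF1) in 1.35, 0.746 and 2.25%. TGACTCA (AP-1) was found in 5.33% of the segment's non-promoter windows, 6.56% elsewhere on chromosome 15 and 6.29% on the other autosomes. CCAAT was found in 31.7% of the segment's non-promoter windows (interval 28.1 to 35.4%). The shares were 35.2% in the rest of chromosome 15 and 36.9% on the other autosomes. Against autosomal windows of the same GC content its ratio was 0.941 (interval 0.816 to 1.08), within counting error.

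The CTCF core CNAGGNGGC was more frequent in the segment's non-promoter windows. It was found in 60 of 638 non-promoter windows of the segment (9.40%, interval 7.25 to 11.9%), against 5.44% in the rest of chromosome 15 (interval 4.05 to 7.13%) and 5.34% on the other autosomes. The segment's non-promoter windows were also richer in G and C (46% against 42 and 40.7% at the median). Against autosomal windows of the same GC content, 54.4 were expected, a ratio of 1.10 (interval 0.841 to 1.42), so the excess was within counting error on that scale.

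Promoter features with CCAAT were seen in more nuclei. In the segment the 75 with it were seen in 9.41 nuclei each and the 148 without it in 6.81, and 37.3 and 18.9% of them reached 10 nuclei. The same order was found in the rest of chromosome 15 (7.59 and 6.399 nuclei) and on the other autosomes (9.55 and 7.95), so it was not particular to the segment. Non-promoter features of the segment did not share it (3.49 with and 3.95 without). A match is a description of the sequence and not a site of binding.

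Lists of 90 genes of the segment, grouped by what they do, were used to describe its content. Of 66 broadly used genes in 5 lists, 56 (84.8%, interval 73.9 to 92.5%) had a promoter feature, and of 24 tissue-restricted genes 9 (37.5%, interval 18.8 to 59.4%) had one. Over all protein-coding genes of the segment the share was 66.3%.

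Among 16 genes of RNA and protein synthesis, 12 had a promoter feature and 5 were seen in at least 10 nuclei. EFL1, a GTPase that acts in the maturation of the large ribosomal subunit, was seen in 13 nuclei of plate 1 and 10 of plate 2, RPS27L, a relative of a small ribosomal subunit protein, in 8 and 7, and IMP3, of the U3 particle that processes ribosomal RNA, in 5 and 8. RPL4, SNUPN, DIS3L and EDC3 had none. In energy metabolism and mitochondria, 11 of 12 had one. After POLG came PKM, the pyruvate kinase of glycolysis (10 and 8 nuclei), IDH3A, a subunit of isocitrate dehydrogenase (6 and 9), and FAH, the last enzyme of tyrosine breakdown (9 and 5), while MPI had none.

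Genome maintenance and cell division had 11 of 12 genes with a promoter feature. PARP6, a PARP family member, was seen in 7 and 5 nuclei, the cytokinesis kinesin KIF23 in 6 and 5 and the PCNA-binding protein gene PCLAF in 3 and 7, and ZWILCH had none. In transcription and chromatin 12 of 13 genes had one. SIN3A was seen in 8 and 15 nuclei over its 2 features, MORF4L1, a chromodomain protein, in 5 and 12, and the zinc finger gene ZSCAN2 in 11 and 6, while ZNF592 had none. In signaling and trafficking 10 of 13 had one, led by AKAP13 (16 and 6), RAB11A of recycling endosomes (6 and 11) and RAB8B (5 and 5), and CSK, PTPN9 and SEMA7A had none.

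The 9 tissue-restricted genes with a promoter feature were led by the mesoderm factor MESP1 (4 nuclei in plate 1 and 7 in plate 2), the motor neuron factor ISL2 (7 and 4) and the retinol receptor STRA6 (5 and 5). The nicotinic receptor genes CHRNA3 (2 and 5), CHRNA5 (2 and 3) and CHRNB4 (1 and 3) were also seen. No promoter feature was found for CYP11A1, CYP1A1, CYP1A2, HCN4, NR2E3, ISLR, ISLR2, CRABP1, RLBP1, PLIN1, BCL2A1, TMC3, BNC1, SKOR1 and CALML4.

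**Figure D5:**
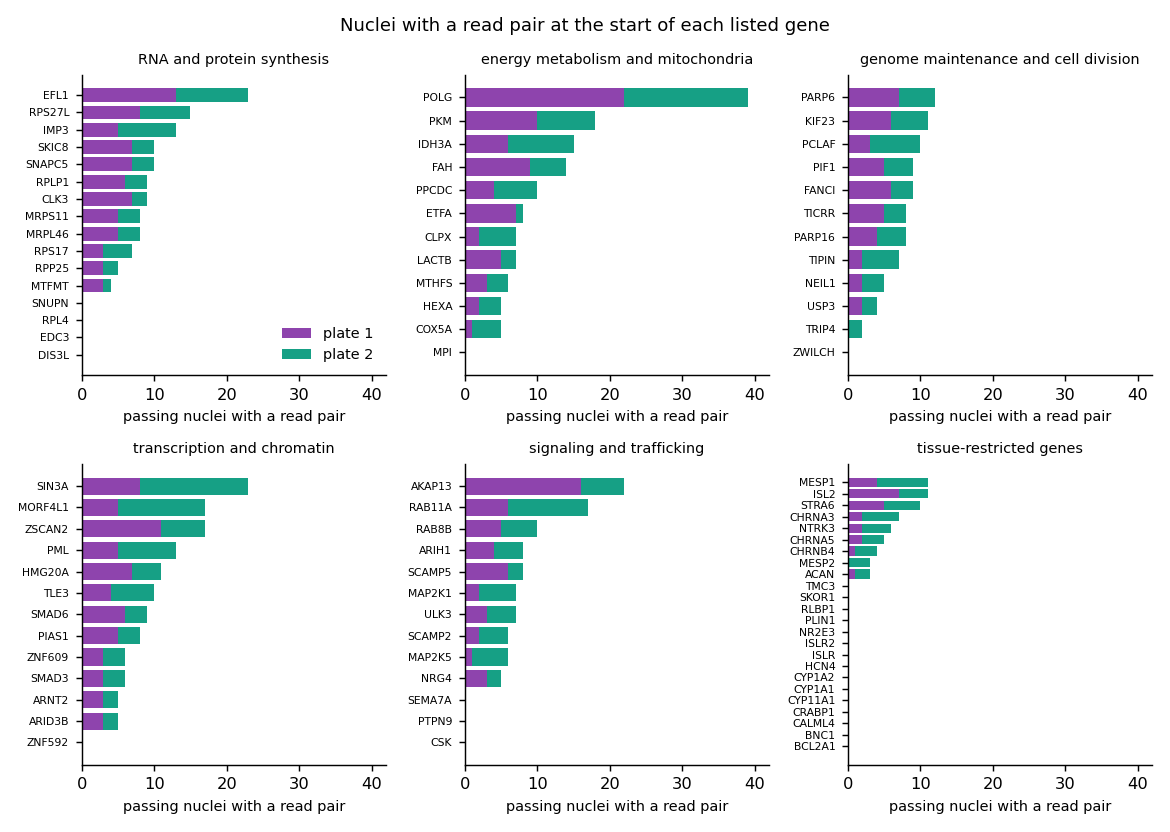
Number of passing nuclei with a read pair in a promoter feature of each of the 90 listed genes, stacked for plate 1 (purple) and plate 2 (green). POLG reaches 39 nuclei, 10 of the 66 broadly used genes are at 0, and 15 of the 24 tissue-restricted genes are at 0.

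Some broadly used genes at 0 lay far from any feature. ZWILCH starts 6.50 kb from the nearest feature, that of SNAPC5 (10 nuclei), although its start has a CpG ratio of 0.920, and MPI starts 11.4 kb from one. ZNF592 missed a feature by 0.064 kb, and that feature was seen in 5 nuclei. EDC3, a factor of mRNA decapping, and CSK, the kinase that restrains SRC, lie with CYP1A1, CYP1A2, LMAN1L and CPLX3 in an interval of 219 kb without a feature (chr15:74616303-74835205). No other interval between neighboring features of the segment held more gene starts than these 6, and the median interval was 18.4 kb. At the depth of these nuclei the absence of a feature does not show that a start is closed.

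Most segment features were seen in few nuclei. Of its non-promoter features, 53 (8.31%, interval 6.28 to 10.7%) were seen in a single sequenced nucleus, against 5% in the rest of chromosome 15 (interval 3.67 to 6.63%) and 5.66% on the other autosomes. Over both classes the segment had 55 such features, of which 8 belonged to cell 12 of plate 2, which did not pass, and 5 to cell 18 of plate 1. These intervals take features as independent. A further 241 of its non-promoter features were seen in exactly 2 nuclei. Of its promoter features, 196 of 223 were seen in both plates (87.9%), and of its non-promoter features 299 of 638 (46.9%), against 82.5 and 47.3% in the rest of chromosome 15. Introns held 69.7% of the segment's non-promoter features (interval 66.02 to 73.3%), intergenic sequence 25.1% and exons 5.17%, with 4.64, 4.48 and 4.91 read pairs each.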

How the data were processed

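The series holds plate-based snATAC-seq of HAP1 cells, 96 nuclei on each of 2 plates. The deposited table gives, without normalization, the count of read pairs of each nucleus in each feature. The authors trimmed reads with fastp, aligned them to hg38 with bowtie2, dropped reads of mitochondria, of low mapping quality and duplicates, ran MACS2 on the nuclei together, widened each around its summit to 1001 bp and counted with featureCounts (version 1.6.0). Duplicates were removed nucleus by nucleus, and overlapping features each count a shared pair. Every feature ended within its chromosome of the GRCh38 reference, and 0 columns were left unmatched to a nucleus.

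The members, gene lists and named-gene rule were chosen with earlier results of these data known. The lists and the 12 promoter and 10 non-promoter features named were set by rule, the latter by nuclei, then read pairs, then genome order. Promoter features held a start of GENCODE 44. Features seen in more than 1 nucleus defined the nuclei with more than 300 that passed, and all features were then used. Shares have exact (Clopper-Pearson) 95% intervals, sums Poisson intervals and ratios conditional binomial intervals. The reads carry no molecular identifiers, so intervals cover counting error only. GC expectations used 20 bins over features of the other autosomes. No doublet caller was run and no test was made. Scripts were tested on simulated counts. Alternatives covered nuclei, wells, feature filters, the promoter rule, thinning to 600 read pairs, the comparison set, the median, each plate and, added after seeing the data, GC. Small RNA genes, the B box, feature-free intervals and stretches were also added after seeing the data. Computations used NumPy 2.4.6 and SciPy 1.17.1 under Python 3.11.15, with pandas 2.3.3 for tables and matplotlib 3.10.9 for figures.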

Additional observations from a re-analysis of the deposited data

How the results depend on the processing

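Of 65 values under alternative settings, 51 lay within the counting interval of the reported value, 2 turned below 1 from a value whose interval lay above 1, and 12 others lay outside the interval. Of the 62 alternative values of the 4 ratios, 51 were above 1, 3 at 1 and 8 below it. The ratio of read pairs per promoter feature (1.15) was 1.06 with features seen in at least 10 nuclei, 1.02 without cells 37 to 48 and 73 to 96, 1.23 in plate 1 alone and 1.07 in plate 2 alone, and turned to 0.899 against the other autosomes. The ratio of nuclei per promoter feature (1.13) was 1.03 without those cells, 1 by the median over features and turned to 0.906 against the other autosomes. The ratio of read pairs per non-promoter feature (1.04) was 1.11 with features seen in at least 10 nuclei and 0.925 against the other autosomes. With nuclei thinned to 600 read pairs (16 nuclei left out) it was 1.24 (interval 1.11 to 1.38). The ratio of read pairs per promoter feature was 1.13 (interval 0.982 to 1.31) in thinned nuclei. The ratio of nuclei per non-promoter feature (1.01) was 1.07, 1.18 (interval 1.05 to 1.32) and 0.914 with at least 10 nuclei, thinned and against the other autosomes. For read pairs in thinned nuclei, the non-promoter interval thus lay above 1 and the promoter interval included 1. The cause of these differences was not tested. None of these 4 ratios per feature exceeded 1.24 under the settings run, and some ratios per gene and per Mb given above were higher. The difference in genes with a promoter feature was 7.24 percentage points with features seen in at least 10 nuclei, and that in entries with 2 or more read pairs was 1.74 points without cells 73 to 96, where its interval (-0.216 to 3.71) came to include 0, as it did in thinned nuclei. No paired analysis was possible because the plates are 2 single samples and no result comes from a test. Depth limits what can be seen: a median of 16.5 segment features per nucleus allows no copy number call for a single nucleus.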

Other observations

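Nuclei that did not pass were left out of the comparisons above. Of the 55 segment features seen in a single sequenced nucleus, 8 belonged to cell 12 of plate 2, which did not pass. All 30 of its chromosome 15 read pairs lay in the segment, in 9 features, and they made up 15.2% of its 198 read pairs. The next most such features, 5, belonged to cell 18 of plate 1, which passed and had 7.14% of its 784 read pairs in the segment. Over all passing nuclei the segment held 1.05% of the read pairs (interval 1.02 to 1.08%), with 1.13% in plate 1 and 0.970% in plate 2.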
